A study of Mus musculus with 6 samples.

Results

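The epidermal growth factor (EGF) receptor family and its ligands were followed through RNA-seq of damaged hepatocytes (dHeps) cultured for 16 days. The set was chosen by gene symbol and comprised 10 genes: the receptors Egfr, Erbb2 and Erbb3 and the ligands Egf, Tgfa, Hbegf, Areg, Ereg, Btc and Nrg1. All 10 were present among the 52327 genes with FPKM values. In the table of 52323 genes with read counts, 9 had their main row, and all 9 passed the filter on low counts. The main gene ID of Nrg1 had FPKM values only, and a second, short Nrg1 ID had 0 to 2 counts per library and was not used.

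The dHeps came from mice of the genotype AAV-TBG-Cre:Rosa-LSL-tdTomato whose livers had been injured with carbon tetrachloride (CCl4). In these mice a virus expresses Cre from the thyroxine-binding globulin promoter and so marks hepatocytes with tdTomato. This genotype, the injury and the serum-free hepatocyte maintenance medium were common to all groups. The study does not list the supplements of this medium or say whether it held EGF, so ligand transcripts do not give the ligand supply of the cells. Control cells received the solvent DMSO. The 3C group received 50 µM CID755673, a protein kinase D inhibitor, 2 µM GSK429286A, a ROCK inhibitor, and 5 µM ETC-1002, named in the study as activating AMPK. The 5C group received these compounds at the same doses and, in addition, 2 µM forskolin, which raises cAMP by activating adenylate cyclase, and 5 µM salidroside, a plant glycoside. Each group had 2 libraries. The labels did not give the age or number of mice behind a library or say that replicates were separate cultures. The study's methods state in general that n stands for biological replicates, without naming these libraries, so p-values measure the spread between these libraries, part of which may be technical.

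ERBB receptors are membrane tyrosine kinases that work as pairs. EGFR binds EGF, TGF-alpha, amphiregulin, HB-EGF, epiregulin and betacellulin, ERBB3 binds neuregulins and has little kinase activity of its own, and ERBB2 has no known ligand and serves as the partner of the others. The ligands are made as membrane precursors and released by ADAM proteases, and the active receptors signal through RAS-ERK and PI3K-AKT. In liver the pathway is known for its role in hepatocyte proliferation during regeneration.

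Library totals ranged from 65916573 to 69245895 counts, and the largest was 1.05 times the smallest. The number of count units per sequenced fragment is unknown. Markers of hepatocytes were detected in every library, and of the 9 listed 8 rose and 1 fell in each cocktail against DMSO. Their summed CPM (counts scaled to a library total of 1000000) were 2559 and 2871 in DMSO, 11161 and 11684 in 3C, and 10604 and 15383 in 5C. Macrophage markers were present too, with summed CPM of 10693 and 11419 in DMSO, 3703 and 3720 in 3C, and 2391 and 2454 in 5C, and of the 10 listed 8 fell and 1 rose in each cocktail. The sums of stellate and fibroblast markers were 6209 to 7328 CPM in DMSO, 5992 to 6027 in 3C and 10085 to 10737 in 5C, those of mesothelial markers 949.7 to 1141, 1175 to 1277 and 2044 to 2122, those of cholangiocyte markers 2928 to 3415, 3580 to 3774 and 2421 to 2726, and those of endothelial markers 353 to 376, 95.3 to 129.6 and 146 to 223. In DMSO the last 2 sums rest mostly on 1 gene each, and neither stands for its list. In 5C, Cdh5 (mean of 57.8 CPM) weighed as much as Lyve1 (57.6 CPM) in the endothelial sum. Single genes weigh on other sums too. Alb had means of 7585 CPM in 3C and 8583 in 5C, and Lyz2 had a mean of 6080 CPM in DMSO. Spp1 had a mean of 2990 CPM in DMSO, while of the 7 cholangiocyte markers 5 were higher and 1 lower in 5C, and 5 higher and 0 lower in 3C. Lyve1 had a mean of 314 CPM in DMSO, while of the 7 endothelial markers 4 were higher and 2 lower in 5C, and 2 higher and 2 lower in 3C. Of the 8 stellate and fibroblast markers 6 were higher and 1 lower in 5C, and 5 higher and 2 lower in 3C. Of the 6 mesothelial markers 6 were higher in 5C and 1 in 3C. All these marker counts are against DMSO, at an adjusted p under 0.05 in the edgeR test described below. Of all genes tested, 15.6% were higher and 13.1% lower in 5C, and 12.7% higher and 11.8% lower in 3C. No marker of these lists was at 0 in any library. In bulk RNA, fewer cells of a type and less RNA per cell cannot be told apart.

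Genes for 3 of the ligands lie in a row on chromosome 5. With Epgn, a further EGF family ligand, they span 375561 bases of GRCm39, in the order Epgn, Ereg (91222157 to 91241505), Areg (91287451 to 91296291) and Btc (91505120 to 91550883), with no other protein-coding gene annotated between them. Promoter windows, from 250 bases before to 50 bases after the start site, were matched in RefSeq (build GRCm38.p6) for 6 of the 10 members, namely Egfr, Erbb2, Egf, Tgfa, Areg and Btc. The windows of Areg, Tgfa and Btc are shown because these 3 ligands were lower in 5C than in 3C, and the cAMP element was looked for because 5C contains forskolin. Capitals mark the cAMP response element (CRE) TGACGTCA and its core TGACG, read on both strands.
Areg (GRCm38.p6 chr5:91139349-91139648, plus strand): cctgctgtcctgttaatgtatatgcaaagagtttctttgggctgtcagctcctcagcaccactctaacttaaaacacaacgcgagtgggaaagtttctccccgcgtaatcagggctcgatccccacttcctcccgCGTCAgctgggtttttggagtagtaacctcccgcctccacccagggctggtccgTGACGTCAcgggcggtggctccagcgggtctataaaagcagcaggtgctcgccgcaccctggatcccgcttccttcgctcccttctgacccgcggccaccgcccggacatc
Tgfa (GRCm38.p6 chr6:86194972-86195271, plus strand): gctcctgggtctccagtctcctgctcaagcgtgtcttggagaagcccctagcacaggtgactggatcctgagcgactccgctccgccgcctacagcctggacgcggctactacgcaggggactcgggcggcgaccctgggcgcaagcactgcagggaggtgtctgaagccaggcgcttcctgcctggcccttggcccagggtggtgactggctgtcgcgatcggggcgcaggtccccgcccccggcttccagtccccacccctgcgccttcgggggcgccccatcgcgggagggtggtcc
Btc (GRCm38.p6 chr5:91402945-91403244, minus strand): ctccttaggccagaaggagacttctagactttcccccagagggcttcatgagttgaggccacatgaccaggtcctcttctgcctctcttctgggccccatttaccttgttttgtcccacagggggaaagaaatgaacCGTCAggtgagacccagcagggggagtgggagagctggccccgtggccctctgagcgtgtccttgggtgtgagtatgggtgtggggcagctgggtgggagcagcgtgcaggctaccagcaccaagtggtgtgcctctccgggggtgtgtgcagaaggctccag
The Areg window held 1 full CRE, which starts 61 bases before the start site, and 3 matches to the core, of which 2 lie within the full CRE. A full CRE was found in 1.79% of 32851 RefSeq promoter windows and in none of the other matched members. The core was found in 20.8% of all windows, and once each in the windows of Btc and Erbb2. The AP-1 motif TGANTCA, present in 7.81% of windows, was not found in the matched members. These matches describe letters in a window and show no binding.

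**Figure D1:**
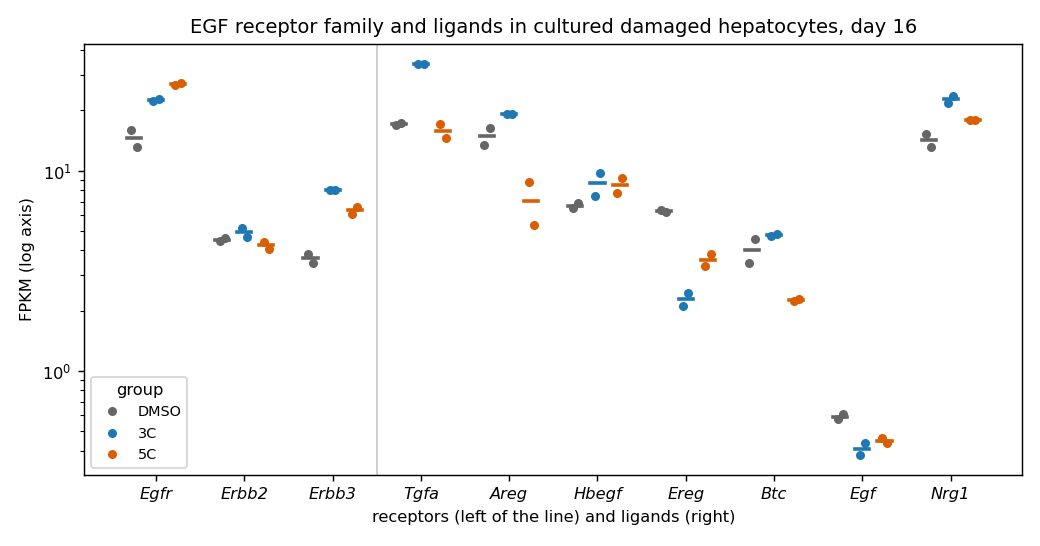
FPKM of each member (log axis) in the 2 libraries of DMSO (grey), 3C (blue) and 5C (orange), with points for libraries and bars for group means. The Egfr points of 3C and 5C lie at 22.3 to 27.5 FPKM, above the DMSO points at 13.1 and 16.0, and Tgfa stands at 34.3 FPKM in both 3C libraries.

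Levels were compared between genes on the FPKM scale, which accounts for gene length. In DMSO the most abundant members were Tgfa (17.2 ± 0.298 FPKM, SD, n = 2), Areg (14.9 ± 1.97), Egfr (14.6 ± 2.07) and Nrg1 (14.2 ± 1.57), and the libraries of Areg, Egfr and Nrg1 overlapped. In 3C the order was Tgfa (34.3 ± 0.0288 FPKM), Nrg1 (22.7 ± 1.33), Egfr (22.5 ± 0.316) and Areg (19.2 ± 0.11), of which Nrg1 and Egfr overlapped. In 5C, Egfr came first (27.2 ± 0.499 FPKM), followed by Nrg1 (17.9 ± 0.0301) and Tgfa (15.8 ± 1.81), with no overlap between these neighbours. Egf, the name-giving ligand, was the least abundant member in all 3 groups, with mean FPKM of 0.591, 0.409 and 0.449 in DMSO, 3C and 5C. Dividing CPM by annotated exon length in place of FPKM put Areg (16.3 CPM per kilobase) above Tgfa (12.5) in DMSO, so the order of these ligands depends on the length used.

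The receptors were examined first. Egfr and Erbb3 rose in both cocktails, whereas Erbb2 did not pass the test in any comparison. A gene passed at a Benjamini-Hochberg adjusted p under 0.05 over the 19135 genes tested with edgeR, and log2 fold changes are given with the standard error (SE). Of the 9 members tested, 5 passed between 5C and DMSO, where 28.7% of all genes did. Of these 5, 2 were higher (15.6% of all genes) and 3 lower (13.1%). Between 3C and DMSO 4 passed, beside 24.5% of all genes, with 3 higher (12.7% of all genes) and 1 lower (11.8%). Between 5C and 3C, 4 passed beside 12.7% of all genes, with 1 higher in 5C (7.33% of all genes) and 3 lower (5.33%). Both cocktail comparisons with the control use the same DMSO libraries. With an absolute log2 fold change above 1 also required, 2, 2 and 3 members passed, beside 11.7%, 9.45% and 3.01% of all genes. The groups' CPM did not overlap in 63.1%, 61.3% and 58% of all genes in these comparisons, so that lack of overlap alone was common.

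Egfr (chromosome 11, 16702198 to 16868158, GRCm39), which encodes the receptor for most EGF-like ligands, had CPM of 138 and 119 in DMSO, 228 and 210 in 3C, and 261 and 252 in 5C. The 3 groups did not overlap, and 5C was highest. The log2 fold change was 1.02 in 5C (SE 0.083, adjusted p = 2.29e-05), a 2.03-fold rise, and 0.74 in 3C (SE 0.082, adjusted p = 0.0002). Between the cocktails the difference was 0.28 (SE 0.082, adjusted p = 0.0586, 95% interval 0.094 to 0.46), which did not pass, although DESeq2 gave an adjusted p of 0.0164. Without DMSO replicate 1 or DMSO replicate 2 this adjusted p was 0.0225 and 0.0241. Most hepatocyte markers rose with Egfr in both cocktails, as did most stellate and fibroblast and most cholangiocyte markers. Mesothelial markers rose in 5C, with 1 higher in 3C, endothelial markers went both ways and most macrophage markers fell. The counts and sums are given above, and the part of these cells in the rise of Egfr was not tested.

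Erbb3 (chromosome 10, 128403392 to 128425811), the neuregulin receptor that signals through its partners, had CPM of 24.9 and 23.4 in DMSO, 54.7 and 53.1 in 3C, and 40.1 and 44.8 in 5C. Here 3C was highest, and no libraries of different groups overlapped. Its log2 fold change was 1.13 in 3C (SE 0.094, adjusted p = 3.73e-05), a 2.18-fold rise, and 0.83 in 5C (SE 0.093, adjusted p = 0.000169). The difference between 5C and 3C was -0.29 (SE 0.092, adjusted p = 0.0743, 95% interval -0.50 to -0.085) and did not pass, whereas DESeq2 gave an adjusted p of 0.0494.

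Erbb2 (chromosome 11, 98303203 to 98328542), the ligandless partner, had CPM of 23.9 and 25.9 in DMSO, 29.0 and 25.8 in 3C, and 23.8 and 22.8 in 5C. All 6 values lay in a narrow range. Against DMSO, the 95% interval of its log2 fold change was -0.32 to 0.16 for 5C (adjusted p = 0.658) and -0.14 to 0.35 for 3C (adjusted p = 0.553). It was -0.42 to 0.058 between the cocktails (adjusted p = 0.349). Summed over the 3 receptors, the FPKM were 22.7 ± 2.25 in DMSO, 35.4 ± 0.103 in 3C and 37.8 ± 0.596 in 5C, mostly through Egfr.

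**Figure D2:**
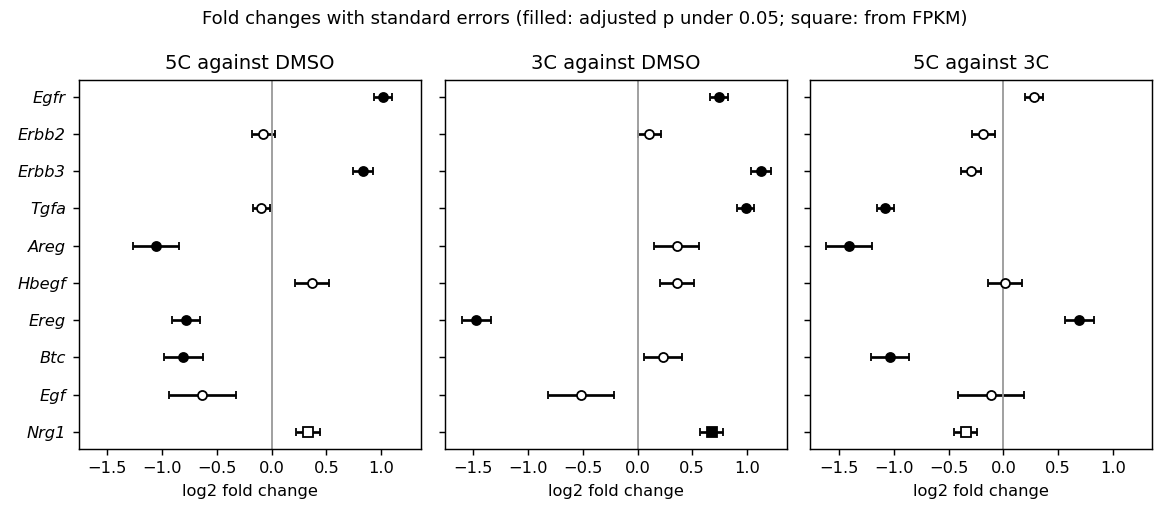
Log2 fold changes of the members with their SE (bars) in the 3 comparisons, filled where the adjusted p was under 0.05. Circles come from counts (edgeR) and squares (Nrg1) from FPKM (limma). Egfr and Erbb3 lie to the right of 0 in both cocktails against DMSO, while Tgfa, Areg and Btc lie at -1.08, -1.41 and -1.04 in 5C against 3C.

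The ligands did not move together. In 5C against DMSO, Areg, Btc and Ereg fell, and none of the 6 member ligands in the count table passed as higher. In 3C against DMSO, Tgfa rose, Ereg fell and Areg and Btc did not pass. Between the cocktails, Tgfa, Areg and Btc were lower and Ereg was higher in 5C.

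Tgfa (chromosome 6, 86172041 to 86252728) encodes transforming growth factor alpha, a ligand made by hepatocytes during regeneration. Its CPM were 82.3 and 88.6 in DMSO, 175 and 171 in 3C, and 84.5 and 73.8 in 5C. The 3C libraries stood apart from the other 4, and DMSO and 5C overlapped. The rise in 3C was 0.99 on the log2 scale (SE 0.079, adjusted p = 3.11e-05), and 5C was lower than 3C by -1.08 (SE 0.080, adjusted p = 0.000194). Against DMSO the log2 fold change in 5C was -0.09 with a 95% interval of -0.27 to 0.086 (adjusted p = 0.443).

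Areg (chromosome 5), which encodes amphiregulin, a heparin-binding EGFR ligand of the inflammatory and wound response, had CPM of 17.6 and 22.3 in DMSO, 26.5 and 25.8 in 3C, and 11.6 and 7.35 in 5C. Both 5C libraries were below the DMSO libraries, and both 3C libraries above them. The log2 fold change was -1.06 in 5C against DMSO (SE 0.21, adjusted p = 0.00562), 0.36 in 3C against DMSO (SE 0.20, adjusted p = 0.266) and -1.41 in 5C against 3C (SE 0.21, adjusted p = 0.00375). Among the 6 members with a matched promoter window, only the window of Areg held the full CRE. Its part in these values was not tested. Since 5C adds both forskolin and salidroside to 3C, their effects cannot be told apart.

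Btc, the betacellulin gene at the far end of the same cluster, had CPM of 10.8 and 14.9 in DMSO, 15.4 and 15.5 in 3C, and 7.08 and 7.39 in 5C. As for Areg, the 5C libraries were lowest. Its log2 fold change was -0.81 in 5C against DMSO (SE 0.17, adjusted p = 0.00771) and -1.04 in 5C against 3C (SE 0.17, adjusted p = 0.00536). In 3C against DMSO it was 0.23 (adjusted p = 0.395). Without 5C replicate 1 the fall against DMSO was -0.76 with an adjusted p of 0.054.

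Ereg, the epiregulin gene that neighbours Areg, followed another order. Its CPM were 28.3 and 29.0 in DMSO, 9.84 and 11.2 in 3C, and 15.1 and 17.8 in 5C. DMSO was highest and 3C lowest, without overlap. Against DMSO the log2 fold change was -1.47 in 3C (SE 0.13, adjusted p = 5.6e-05), 2.78-fold lower, and -0.78 in 5C (SE 0.13, adjusted p = 0.00177). In 5C it was higher than in 3C by 0.69 (SE 0.13, adjusted p = 0.00884), a difference that had adjusted p-values of 0.0907 without 3C replicate 1 and 0.0686 without 5C replicate 2. Epiregulin is also made by macrophages, whose markers were highest in DMSO as Ereg was but lower in 5C (2391 and 2454 CPM) than in 3C (3703 and 3720 CPM), unlike Ereg. The part of these cells in the ligand values was not tested.

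Hbegf, encoding the heparin-binding EGF-like growth factor, had CPM of 16.6 and 18.4 in DMSO, 20.1 and 25.7 in 3C, and 20.1 and 24.5 in 5C. The cocktail libraries lay above DMSO and overlapped each other. Its log2 fold changes, 0.37 for 5C and 0.36 for 3C, did not pass (adjusted p = 0.118 and 0.141), and their 95% intervals were 0.013 to 0.72 and 0.0032 to 0.71. The interval of the difference between the cocktails was -0.34 to 0.36. The reads of Hbegf are uncertain, since 16.9% of the 50-base words of its longest transcript occurred in other genes and 831 exonic bases overlapped an annotated antisense gene.

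Egf had only 106 to 205 counts per library, or 2.75 and 3.11 CPM in DMSO, 1.93 and 2.26 in 3C, and 1.53 and 2.20 in 5C. The DMSO libraries were highest. Against DMSO, its log2 fold changes were -0.63 for 5C and -0.52 for 3C and did not pass (adjusted p = 0.163 and 0.273), with 95% intervals of -1.32 to 0.055 and -1.20 to 0.17. Its reads are uncertain as well, with 18.5% of words shared with other genes.

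Nrg1 (chromosome 8, 32303906 to 33374825) encodes neuregulin 1, a ligand of ERBB3. Its FPKM were 15.3 and 13.1 in DMSO, 21.8 and 23.7 in 3C, and 17.8 and 17.9 in 5C, with 3C highest and no overlap between groups. By limma on log2(FPKM + 0.1), Nrg1 rose in 3C by 0.68 (SE 0.11, adjusted p = 0.00256), where 20.6% of 18332 genes passed and 11.5% were higher. The difference of 0.33 between 5C and DMSO did not pass (adjusted p = 0.0538), where 24.7% of genes passed and 13.3% were higher. The difference of -0.34 between 5C and 3C did not pass either (adjusted p = 0.0915), where 8.94% of genes passed and 4.85% were higher. Without DMSO replicate 1 the value in 5C was 0.45 with an adjusted p of 0.0295, and without DMSO replicate 2 it was 0.22 with an adjusted p of 0.186.

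**Figure D3:**
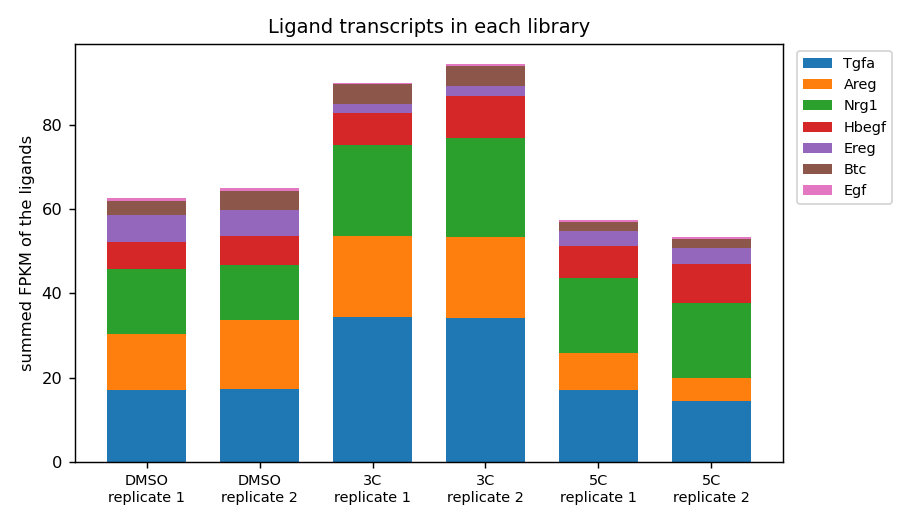
Summed FPKM of the 7 ligand genes in each library (bars from 0), coloured by gene. The 3C bars are highest, the Tgfa share is largest there, and the Areg share is smallest in the 5C libraries.

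Added together, the ligands gave 63.8 ± 1.63 FPKM in DMSO, 92.3 ± 3.18 in 3C and 55.5 ± 2.80 in 5C. The make-up of this sum also differed, and it is given as a description without a test. Tgfa contributed 26.9% ± 0.221 (SD, n = 2) in DMSO, 37.2% ± 1.31 in 3C and 28.4% ± 1.83 in 5C. Nrg1 contributed 22.3% ± 3.03, 24.6% ± 0.596 and 32.2% ± 1.68, and Areg 23.3% ± 2.48, 20.8% ± 0.837 and 12.6% ± 3.67. Ereg made up 9.88% ± 0.42 of the sum in DMSO, 2.47% ± 0.179 in 3C and 6.49% ± 0.94 in 5C. The sum in 5C was thus below that in DMSO while the receptor sum was above it, and 3C had higher sums of both.

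Among the other 5 genes of the family, Nrg4, which encodes a further ERBB ligand, had 9.77 and 9.62 CPM in DMSO, 22.0 and 19.8 in 3C, and 12.4 and 16.9 in 5C. It rose in 3C by 1.08 on the log2 scale (SE 0.16, adjusted p = 0.00133) and in 5C by 0.62 (SE 0.16, adjusted p = 0.0209). Nrg2 had 129 to 283 counts per library and did not pass in any comparison. Erbb4, the remaining receptor, was barely detected, with 4 to 23 counts per library, as was Epgn, with 0 to 20. Nrg3 had 0 counts in all 6 libraries.

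**Figure D4:**
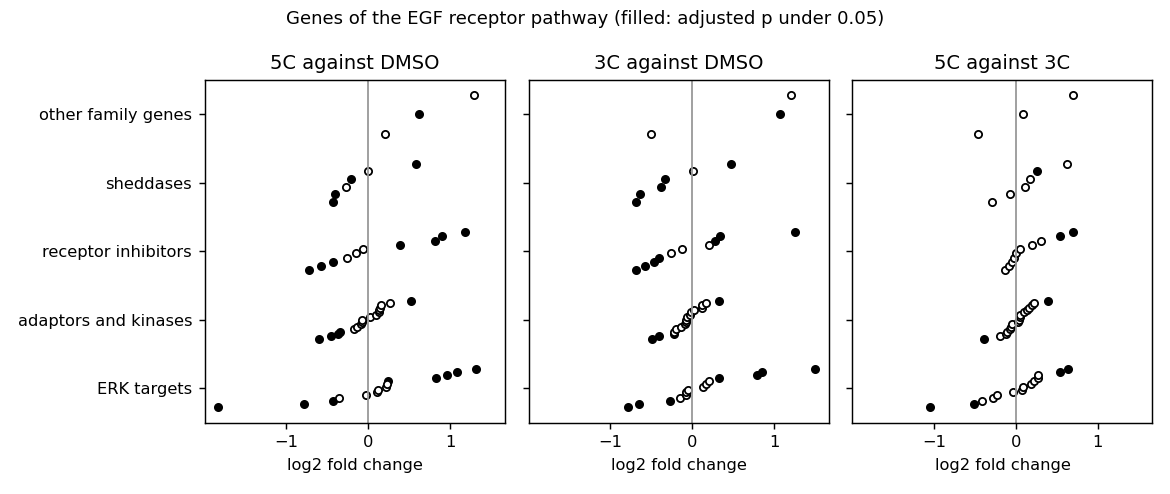
Log2 fold changes of the tested genes of 5 pathway lists, one point per gene, filled where the adjusted p was under 0.05. Apart from the other family genes, each list has points on both sides of 0 in each comparison, with the widest spread among the ERK targets (-1.83 to 1.32 in 5C against DMSO).

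The wider pathway was described from 52 listed genes, of which 50 were tested. Between 5C and DMSO 25 passed, 12 higher and 13 lower, beside 28.7% of all genes. Between 3C and DMSO 24 passed, 10 higher and 14 lower, beside 24.5% of all genes. Between the cocktails 9 passed, 6 higher and 3 lower in 5C, beside 12.7% of all genes. With an absolute log2 fold change above 1 also required, 4, 3 and 1 passed in these comparisons, beside 11.7%, 9.45% and 3.01% of all genes. The medians of the 50 log2 fold changes were 0.01, -0.07 and 0.06, beside medians over all genes tested of 0.00413, 0.00876 and -0.01. When 3C replicate 1 was left out, 12 genes passed between 3C and DMSO and 5 between the cocktails. When 3C replicate 2 was left out, these counts were 14 and 4.

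Of the 6 sheddase genes, Adam10, Adam17 and Adam9 fell in both cocktails, and Rhbdf1, which encodes a rhomboid-like partner of ADAM17, rose in both. In 5C against DMSO 1 was higher and 3 were lower, beside 15.6% and 13.1% of all genes. In 3C against DMSO 1 was higher and 4 were lower, beside 12.7% and 11.8% of all genes. None of the 6 passed with an absolute log2 fold change above 1. Adam17, the main protease for most EGFR ligands, changed by -0.21 in 5C (adjusted p = 0.0492) and -0.38 in 3C (adjusted p = 0.0036). Adam9 changed by -0.43 in 5C and -0.68 in 3C, and was higher in 5C than in 3C by 0.26 (adjusted p = 0.0335). Rhbdf1 rose by 0.58 in 5C and 0.47 in 3C. Adam12, a further metalloprotease gene, changed by -0.63 in 3C (adjusted p = 0.0407) and had a log2 fold change of -0.003 in 5C (adjusted p = 0.993). By limma on FPKM, Adam17 in 5C (adjusted p = 0.0788), Adam12 in 3C (adjusted p = 0.277) and Adam9 between the cocktails (adjusted p = 0.106) did not pass.

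Of the 10 genes for inhibitors of the receptors, 7 passed in each cocktail against DMSO, 4 higher and 3 lower in 5C, and 3 higher and 4 lower in 3C, beside 28.7% and 24.5% of all genes. Errfi1, encoding the EGFR kinase inhibitor MIG6, had the largest rise, from 155 ± 2.93 CPM in DMSO to 379.9 ± 10.3 in 3C and 347 ± 30.2 in 5C. Its log2 fold change was 1.26 in 3C (SE 0.084, adjusted p = 1.12e-05) and 1.18 in 5C (SE 0.083, adjusted p = 1.02e-05). Of the genes for leucine-rich repeat inhibitors, Lrig3 was higher in 5C by 0.91 and Lrig1 in 3C by 0.34 and in 5C by 0.39, whereas Lrig3 in 3C (0.21, adjusted p = 0.36) and Lrig2 in either cocktail did not pass. Socs5, which encodes a suppressor of cytokine signalling, was higher by 0.81 in 5C and 0.28 in 3C. Among those lower in both were Cbl, encoding a ubiquitin ligase that sends EGFR to degradation, at -0.72 in 5C and -0.68 in 3C, the related Cblb, at -0.43 in 5C and -0.40 in 3C, and the phosphatase gene Ptpn1, at -0.57 in both. Rnf41 was also lower in 3C, at -0.46 (adjusted p = 0.00498), and did not pass in 5C (-0.15, adjusted p = 0.267). Between the cocktails, 2 genes passed, Lrig3 (0.69) and Socs5 (0.53), both higher in 5C. Of all genes, 12.7% passed there and 7.33% were higher in 5C. By limma on FPKM, Cblb in 5C and 3C (adjusted p = 0.18 and 0.117), Socs5 in 3C (adjusted p = 0.26) and Lrig3 between the cocktails (adjusted p = 0.0655) did not pass.

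Of the 17 genes for adaptors and kinases, 5 passed for 5C and 4 for 3C when compared with DMSO. These counts are near the background of 28.7% and 24.5% of all genes. Their log2 fold changes ran from -0.59 to 0.52 in 5C and from -0.48 to 0.33 in 3C. The gene of the adaptor Grb2 changed by -0.59 in 5C and -0.48 in 3C, whereas that of the adaptor Shc1 rose by 0.52 in 5C. Pik3r1, the regulatory subunit of PI3K, changed by -0.45 in 5C, Sos2 by -0.41 in 3C and Nras by -0.34 in 5C and -0.22 in 3C, and Mapk3, which encodes ERK1, rose by 0.33 in 3C. By limma on FPKM, Sos2 (adjusted p = 0.0852) and Nras (adjusted p = 0.172) in 3C did not pass. In 5C against 3C, Shc1 was higher by 0.40 and Pik3r1 differed by -0.38.

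Of the 14 ERK target and feedback genes, 5 rose and 3 fell in 5C against DMSO, beside 15.6% of all genes higher and 13.1% lower. In 3C 4 rose and 3 fell, beside 12.7% higher and 11.8% lower. The genes for Sprouty feedback inhibitors did not move together. Spry4 went from 15.1 ± 0.13 CPM in DMSO to 26.6 ± 1.42 in 3C and 37.2 ± 0.977 in 5C, and its log2 fold changes were 0.79 and 1.32 (adjusted p = 0.000333 and 1.19e-05). Spry1 rose 2.83-fold in 3C and 2.12-fold in 5C. Spry2, of the same family, changed by -0.65 on the log2 scale in 3C and -0.43 in 5C. The immediate early gene Egr1 rose by 0.85 in 3C and 0.82 in 5C. Fosl1, an AP-1 subunit induced by sustained ERK activity, fell from 9.43 ± 2.05 CPM in DMSO to 5.64 ± 0.334 in 3C and 2.62 ± 0.619 in 5C, and its log2 fold changes were -0.77 and -1.83 (adjusted p = 0.0466 and 0.000579). Dusp4, a phosphatase gene, changed by -0.78 in 5C. In 5C against 3C, Dusp5 (0.63) and Spry4 (0.53) were higher, and Fosl1 (-1.05) and Dusp4 (-0.52) lower. By limma on FPKM, Spry4 did not pass there (adjusted p = 0.0607).

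The genes with a pattern most like that of Egfr over the 6 libraries, among 9958 other genes averaging 10 CPM or more, were Mn1, Bhlhb9 and Cyb561a3. Their centred log2 CPM differed from those of Egfr by a root mean square of 0.044, 0.045 and 0.051. For Tgfa, the ligand with the highest mean CPM, the nearest were Dsg2, Rragd and Sorbs2, at 0.072, 0.079 and 0.094. Dsg2, a desmosomal cadherin gene, had mean CPM of 153 in DMSO, 287 in 3C and 144 in 5C.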

How the data were processed

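Bulk RNA-seq values of 6 libraries (DMSO, 3C and 5C, 2 each) were used. The submitters' processing notes name the build GRCm39 and the tools featureCounts, Subread and DESeq2, and the annotation, the strand setting and the versions of featureCounts and Subread are not given in the sources used here. The count table deposited by the authors holds unscaled whole-number counts, in which 4 occurred 4816 times beside 3121 entries of 3 and 2303 of 5, for an unknown reason. The FPKM table deposited by the authors is scaled for gene length and library total, and the depth behind Nrg1 is unknown.

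Counts were tested in R 4.3.3 with edgeR 4.0.16, by its quasi-likelihood method (TMM normalization, filterByExpr, robust dispersion, 1 coefficient per group, 3 residual degrees of freedom), with adjusted p-values over all 19135 genes tested. The SE is that implied by the F statistic. CPM are counts scaled to a library total of 1000000. Nrg1 was tested with limma 3.58.1 (trend, robust) on log2(FPKM + 0.1) for genes with a mean of at least 0.1 FPKM. Changes on that scale understate those of low genes.

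Named pathway genes included those with the 2 largest and 2 smallest log2 fold changes among the genes of a list that passed in a comparison. Some further genes of the lists, such as Cblb and Lrig2, were named outside this rule. Nearest patterns were sought for Egfr and for the ligand with the highest mean CPM. Members and lists were chosen with earlier results of these data known. Adjusted p-values for gene lists alone were not computed. The edgeR and limma steps were tested on simulated data with known changes. For 5C against DMSO, edgeR recovered 29% of simulated log2 changes of 0.5, 74% of those of 1 and 92% of those of 2. In these runs edgeR also called 18, 16 and 25 genes outside the 200 altered ones, beside 58, 148 and 184 recovered. Each run changed only 200 genes, whereas 28.7% of all genes passed between 5C and DMSO in the data. The rates and counts therefore need not hold for the data. In the simulated setting small changes were often missed.

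Alternatives were RLE and upper quartile factors, DESeq2 1.42.0, other filters, fits of 2 groups, a replicate block, a fold change limit, FPKM, counts divided by 4 and leaving out each library. Positions come from GENCODE (GRCm39) and promoters from RefSeq (GRCm38.p6). No column of another series was present. Figures were drawn with matplotlib 3.10.9.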

Additional observations from a re-analysis of the deposited data

Results flagged for a closer look

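The cocktails differed in their effect on 3 ligand genes, with signs against the shared DMSO libraries that were opposite and a tested difference between 5C and 3C by edgeR. Areg was -1.06 in 5C and 0.36 in 3C against DMSO, with a difference of -1.41 on the log2 scale (adjusted p = 0.00375). For Btc the values were -0.81 and 0.23, with a difference of -1.04 (adjusted p = 0.00536). For Tgfa they were -0.09 and 0.99, with a difference of -1.08 (adjusted p = 0.000194). Only the fall of Areg and Btc in 5C and the rise of Tgfa in 3C passed against DMSO, so the tests cover the difference between 5C and 3C, whereas a change in opposite directions was not established. Ereg, the neighbour of Areg, was higher in 5C than in 3C by 0.69.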

How the results depend on the processing

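In the order 5C with DMSO, 3C with DMSO and 5C with 3C, 5, 4 and 4 members passed. With an absolute log2 fold change above 1 required, 2, 2 and 3 members and 4, 3 and 1 of the 50 tested pathway genes passed. Of all genes, 11.7%, 9.45% and 3.01% passed with this limit. DESeq2 gave 14 pathway genes between the cocktails, where edgeR gave 9. Leaving out each library gave 4 to 5, 4 to 4 and 3 to 5 members and 19 to 24, 12 to 24 and 4 to 11 pathway genes. Over all genes, the number passing between the cocktails was 2423, but 1062 when 3C replicate 1 was left out and 1087 when 3C replicate 2 was. For Nrg1, leaving out libraries gave log2 values of 0.22 to 0.45 for 5C and 0.56 to 0.79 for 3C with DMSO as the control, and -0.40 to -0.28 between the cocktails, and the value of 0.45, without DMSO replicate 1, passed. With CPM per exon kilobase, only 2 of 9 members kept their rank in DMSO and 4 in 3C.

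Of 432 values of single members under other settings, 410 kept their direction and side of the threshold. Those that changed sign were all of Hbegf and Egf between the cocktails, where the reported values were 0.01 and -0.11 and did not pass. Leaving out libraries gave -0.16 to 0.20 for Hbegf and -0.42 to 0.13 for Egf. Hbegf was -0.0115 with upper quartile factors, -0.0238 and -0.0256 on log2(FPKM + 1) and log2(FPKM + 0.1), -0.16 without 3C replicate 1 and -0.16 without 5C replicate 2. Egf was 0.041 and 0.11 on the same FPKM scales, 0.00543 without 3C replicate 2 and 0.13 without 5C replicate 1. The cause was not tested.

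Over all genes tested, the correlation of replicate differences between groups was -0.031 to 0.016. This cannot settle whether the replicate numbers pair the libraries, since noise in single genes can hide a shared difference. With the replicate block, 6, 5 and 5 members passed, because Hbegf passed against DMSO (0.36 in 5C and 0.35 in 3C) and Egfr between the cocktails (0.28). With 2 libraries a group, small differences such as those of Hbegf had intervals that reached close to 0.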
